A study of Mus musculus with 4 samples.

Results

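The 4 genes for intracellular fibroblast growth factors, Fgf11, Fgf12, Fgf13 and Fgf14, and the ankyrin genes Ank2 and Ank3 carried 1144 of 97775 Elavl peaks in mouse cortex and 5 of 7335 in N2A cells, a mouse neuroblastoma line. A peak is a stretch where RNA fragments crosslinked to Elavl protein piled up, as called by the authors. Its listed end lies 50 to 51 nt past its listed start in the cortex list. The genes were chosen by family, and also selected on peak values already known, among them the high number of cortex peaks in Fgf14 and the p of 0 of a cortex peak in Fgf14 and in Ank3. Their peaks are those that overlap the gene span in GRCm38 by at least 1 nt and lie on the strand of most of the gene's peaks. All 6 genes had a cortex peak and 1 had an N2A peak, and 0 peaks in the spans lay on the other strand. Counts and positions below are therefore descriptions without a test.

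The data are HITS-CLIP, in which ultraviolet light fixes a protein to the RNA it touches before immunoprecipitation, partial RNase digestion and sequencing. There were 3 cortex samples, with degenerate linkers of 25 nt, and 1 sample of N2A cells, with a linker of 7 nt, so the linker cannot be told apart from the source. A single list stands for the 3 cortex samples. It is named for 2 months without saying what that time refers to, and neither genotype nor treatment is given in the labels. With 1 list per group and no read counts, there is no spread between replicates, depth is unknown, and more RNA and more binding per RNA cannot be told apart. In a tissue, RNA from fewer cells and less RNA per cell cannot be told apart either. By bound marker RNAs, the cortex list held peaks in 5 of 5 excitatory neuron, 3 of 5 inhibitory neuron, 4 of 5 astrocyte, 4 of 5 oligodendrocyte and 1 of 5 microglia genes, with Slc32a1, Sst, Gfap, Mag and all microglia markers except P2ry12 at 0. Of neuroblastoma and sympathoadrenal genes, the N2A list held peaks in Gata2, Hand2 and Lin28b, with Th, Dbh and Gata3 at 0, and it held peaks in 0 of these brain markers. The cortex list also held 4 peaks in Lin28b and 1 in Gata3, so these genes do not mark N2A cells alone. Over all coding genes, 40.8% had a cortex peak and 14.4% an N2A peak, so counts over so few markers only describe the lists.

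Elavl proteins are RNA-binding proteins that recognise U-rich and AU-rich RNA, in introns as well as in the ends of messenger RNAs. The intracellular fibroblast growth factors lack the signal for secretion. They bind the cytoplasmic tail of voltage-gated sodium channels and tune how the channels inactivate. Ankyrins link membrane proteins to the spectrin skeleton. The product of Ank3, ankyrin-G, gathers sodium channels at the axon initial segment, where action potentials start, and the product of Ank2, ankyrin-B, serves mainly in the axon shaft.

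Sequence could be read under only 2 of the 1144 cortex peaks, because only RefSeq windows around start sites and microRNA hairpins (GRCm38.p6) were at hand. Both are shown because they let the bound RNA itself be seen, 5′ to 3′ on the strand of the peak, with T standing for U and every TTTTT or ATTTA in capitals. The Ank2 peak, at chr3:127161070-127161120 on the minus strand (p of 0.00331), lies 339 kb into the gene, and its sequence comes from the start window of Gm16958, a noncoding gene on the other strand. The Fgf12 peak, at chr16:28600022-28600073 on the minus strand (p of 0.0118), overlaps the first 22 bases of the Mir690 hairpin, which lies in the span on the same strand, and only those bases are shown.
Ank2 peak: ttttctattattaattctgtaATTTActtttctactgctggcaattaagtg
Fgf12 peak, part in the Mir690 hairpin: tgtgTTTTTgtggagctaattg
Of the 51 Ank2 bases, 26 were T and 25.5% were G or C, and the peak held ATTTA but no TTTTT. Of the 22 Fgf12 bases, 11 were T, and they held TTTTT. Both end positions are included in these sequences. Whether the deposited coordinates count from 0 or from 1 is not stated, so each sequence may be shifted by 1 base or hold 1 base outside the peak.

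The surroundings of the Ank2 peak are shown next, to set the bound stretch (capitals) against its flanks. The run covers chr3:127161055-127161354 on the minus strand, 234 bases before the peak and 15 after it.
Ank2 surroundings: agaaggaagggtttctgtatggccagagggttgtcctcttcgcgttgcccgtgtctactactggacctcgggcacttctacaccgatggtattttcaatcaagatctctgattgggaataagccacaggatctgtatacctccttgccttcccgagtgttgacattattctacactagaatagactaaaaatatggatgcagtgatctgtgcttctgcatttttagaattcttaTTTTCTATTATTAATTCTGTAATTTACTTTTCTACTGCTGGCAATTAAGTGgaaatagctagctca
T made up 26 of the 51 bases of the peak and 31.3% of the other 249 bases. The flank shortly before the peak holds a TTTTT, which lies outside the called stretch. As background over all genes, 71 cortex peaks lay wholly inside a RefSeq start window of 300 bases. TTTTT was found in 73.2% of them on the strand of the peak and in 4.23% on the opposite strand, against 5.65% of all 51-base tiles of these windows on both strands. ATTTA was found in 8.45% of these peaks and in 4.26% of tiles. Of only 9 N2A peaks inside such windows, 2 held TTTTT on the strand of the peak, 1 on the opposite strand, and 1 held ATTTA. The motifs were searched as exact letters, and a peak can hold both.

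By number, Fgf14 held most of the peaks. It had 613 cortex peaks, 53.6% of those in the 6 genes, followed by Fgf12 with 215, Ank2 with 192, Ank3 with 96, Fgf13 with 27 and Fgf11 with 1. At least 1 cortex peak was found in 40.8% of all 21896 coding genes, and in 92.0% of the 351 coding genes of at least 400 kb. All members but Fgf11 exceed that length, so a peak in each is near what long genes show. At least 20 cortex peaks were found in 4.85% of coding genes and in 5 of the 6 members. Coding genes of at least 400 kb with a cortex peak had a median of 48 peaks, so at least 20 is common at that length. Fgf14, Fgf12, Ank2 and Ank3 lay above that median and Fgf13 below it. Fgf14 ranked 5th among all coding genes by number of cortex peaks.

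**Figure D1:**
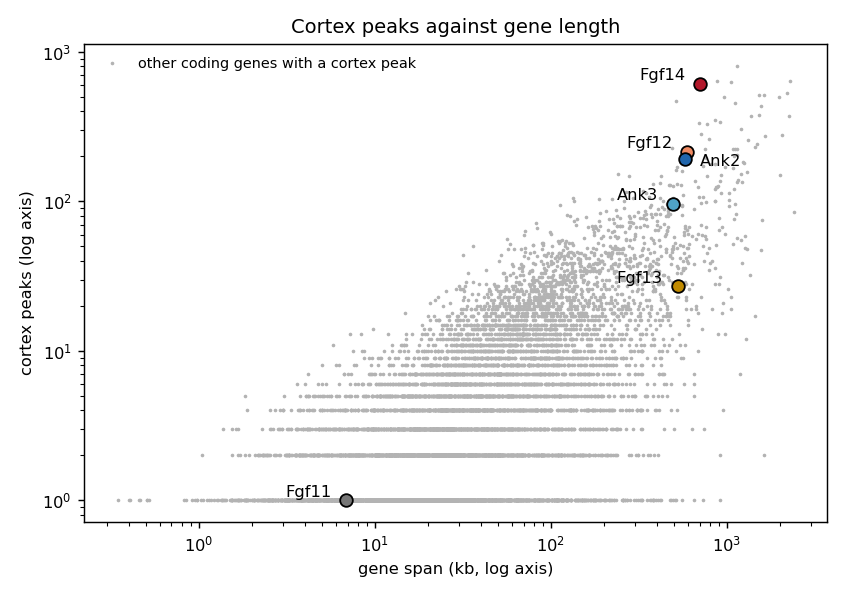
Cortex peaks (vertical, log axis) against the length of the gene span in kb (horizontal, log axis) for every coding gene with a cortex peak (grey) and the 6 members (coloured). Fgf14, with 613 peaks in 703 kb, lies at the upper edge of genes of its length, and Fgf13, with 27 in 523 kb, lies well below it.

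Per length of span, the 6 genes covered a wide range of cortex peak density. Intervals here are exact Poisson 95% intervals and cover counting error only, because peaks are not replicates. Fgf14 had 8.72 peaks per 10 kb (8.04 to 9.43), the 2nd highest density of the 1910 coding genes of at least 100 kb with a cortex peak. Fgf12 had 3.61 (3.14 to 4.13) and ranked 71st, and Ank2 had 3.32 (2.86 to 3.82) and ranked 90th. The intervals of Fgf12 and Ank2 overlap, so these neighbours in the order do not differ beyond counting error. Ank3 followed with 1.94 per 10 kb (1.57 to 2.37), rank 349. Fgf13 was lowest, with 0.516 (0.340 to 0.750), rank 1126. The median over these 1910 genes was 0.715, with quartiles of 0.263 and 1.49, so Fgf13 alone of the 5 long members lay below the median. Its interval covers that median, and its density lies between the quartiles. Fgf11, with 1 peak in a span of 6.88 kb, had 1.45 per 10 kb (0.0368 to 8.10), an interval that overlaps those of all the others. Density in Fgf14 was 2.41 times that in Fgf12 and 16.9 times that in Fgf13, genes that encode closely related proteins, and density in Ank2 was 1.71 times that in Ank3.

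**Figure D2:**
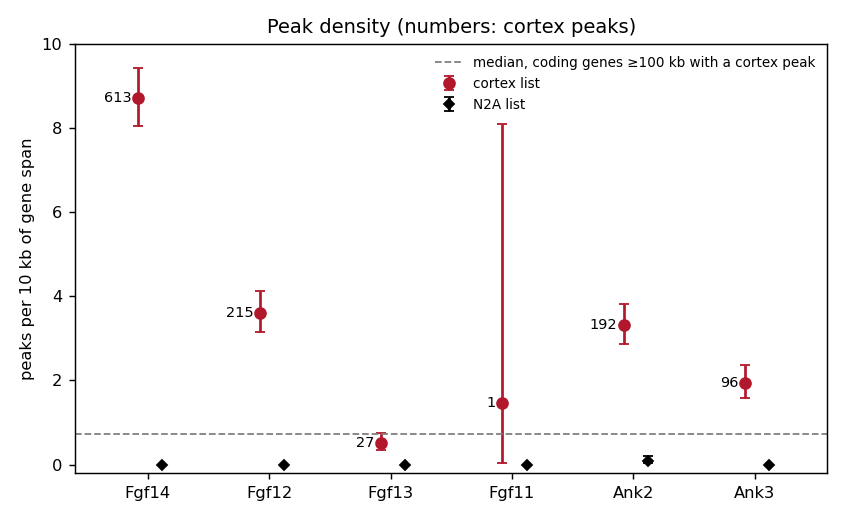
Peaks per 10 kb of gene span for each gene in the cortex list (red circles, with the number of cortex peaks) and the N2A list (black diamonds). Bars are exact Poisson 95% intervals for counting error, not drawn where the count is 0, and the dashed line is the cortex median of 0.715 over coding genes of at least 100 kb with a cortex peak. Fgf14 stands at 8.72 and Fgf13 at 0.516, and N2A values are at 0 except for Ank2.

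Pooled over the 6 genes, of which Fgf14 gives 53.6% of the peaks, the median cortex p was 0.00411 against 0.00972 for the whole cortex list, and 58.6% against 50.3% of peaks were under 0.01. A p under 1e-10, called a strong peak below and a threshold chosen after the values were seen, was found for 179 of the 1144 member peaks (15.6%) and for 9816 of the 97775 peaks of the list. Of these 179, Fgf14 held 115, Fgf12 35, Ank2 15, Ank3 11, Fgf13 3 and Fgf11 0. The median p was 0.00275 in Fgf14, 0.00413 in Fgf12 and 0.00456 in Ank3. It was nearer that of the list in Ank2, at 0.00817, and above it in Fgf13, at 0.0133. The share of peaks under 0.01 was 61.3% in Fgf14, 59.4% in Ank3, 58.1% in Fgf12, 51.6% in Ank2 and 44.4% in Fgf13.

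Fgf14, whose loss or mutation causes ataxia, carried peaks along nearly its whole length. Its span runs over chr14:123974441-124677686 on the minus strand, 703 kb. The median distance from the edge of a peak to the next was 596 nt, against 1359 nt in Fgf12, and the longest stretch between peak centres without a peak was 10.2 kb. In its densest 10 kb, which began 150 kb from the start, there were 21 peaks. Of the Fgf14 peaks, 28.2% had a neighbour within 200 nt. Peaks thinned out towards the 3′ end. Of 10 equal parts of the span, the first to the third held 87, 94 and 88 peaks, and the eighth to the last held 29, 46 and 31. The 5′-proximal 50% of the span held 66.4% of the peaks (Wilson 95% interval 62.6 to 70.0), rank 188 from the top among the 768 coding genes of at least 100 kb with at least 20 cortex peaks, whose median was 53.3%.

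RefSeq lists an internal start site of Fgf14 485 kb from the first base of the span. Before it lay 502 peaks (81.9%), at 10.3 per 10 kb (9.46 to 11.3), and after it 111, at 5.09 per 10 kb (4.19 to 6.13). The intervals do not overlap, but this division was chosen after the values were seen and the difference was not tested. Of the 115 strong peaks, 105 lay before the internal start, in RNA that transcripts from that start do not include. The strongest, with a p listed as 0 as for 65 peaks of the list, lay at chr14:124577437-124577488, 100.2 kb into the gene. The next were at chr14:124520768-124520818 (p of 1.43e-162), 157 kb in, and at chr14:124654169-124654219 (p of 8.55e-143), 23.5 kb in. The 4th, at chr14:123979045-123979096 (p of 3.59e-139), lay 4.63 kb from the gene end. In the last 5 kb there were 11 peaks, 3 of them strong, and the nearest to the end had its centre 352 nt from it. Of the Fgf14 peaks, 10 overlapped the span of the coding gene Itgbl1, which RefSeq places on the opposite strand. Also, 9 overlapped the noncoding gene 1700024B18Rik and 1 the pseudogene Olfr277-ps1. The strands of that noncoding gene and pseudogene were not at hand, so RNA from them may not be separable from that of Fgf14.

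**Figure D3:**
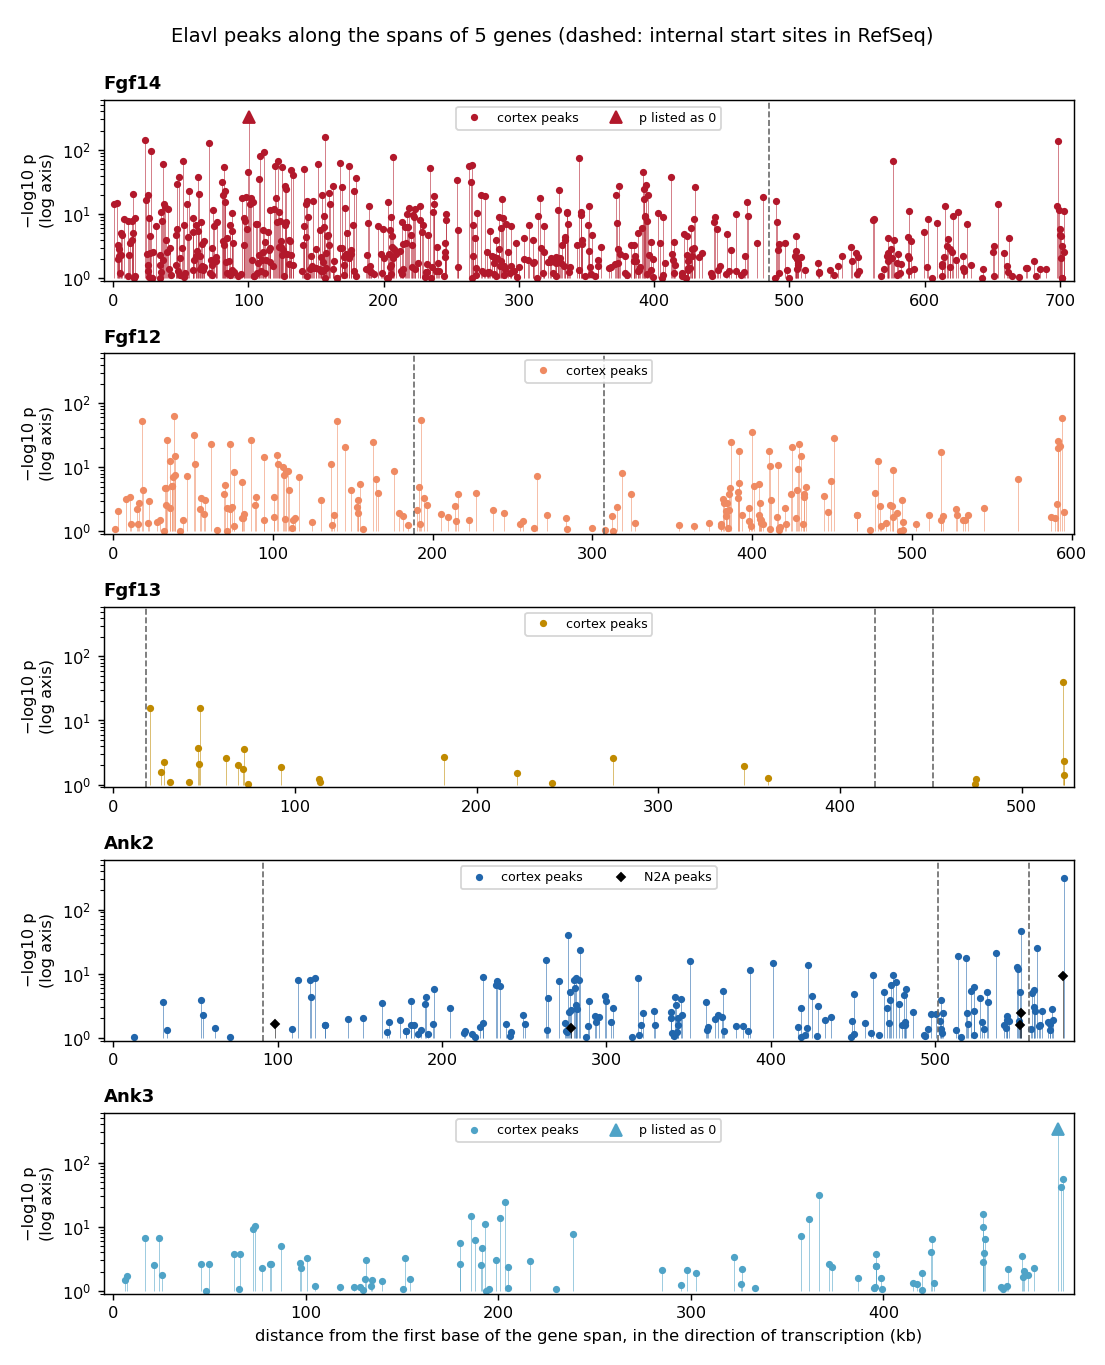
Deposited p of each peak as −log10 p (vertical, log axis) against its distance in kb from the first base of the gene span, in the direction of transcription, for Fgf14, Fgf12, Fgf13, Ank2 and Ank3. Coloured points are cortex peaks, black diamonds N2A peaks, triangles cortex peaks with a p listed as 0, and dashed lines internal start sites in RefSeq. Fgf14 is filled over nearly all of its 703 kb, Fgf12 is sparse in its middle, and in Fgf13, Ank2 and Ank3 the lowest p lies at the right edge.

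Fgf12, the sodium channel partner whose gain of function causes an early epilepsy, had peaks in separate blocks. Its span is chr16:28157783-28753243 on the minus strand, 595 kb. Of 10 equal parts, the first and second held 36 and 34 peaks, the fifth and sixth 8 and 9, and the seventh 37. The longest stretch without a peak, 27.7 kb, began 326 kb from the start. RefSeq start sites, with those within 2 kb of each other merged, divide the span at 188 kb and 307 kb. Density was 4.78 per 10 kb (3.84 to 5.88) in the first stretch, 1.93 (1.23 to 2.90) in the middle and 3.54 (2.88 to 4.29) in the last. The intervals of the middle and first stretches do not overlap, and those of the middle and last overlap only from 2.88 to 2.90. These intervals treat peaks as independent, though 21.4% of Fgf12 peaks had a neighbour within 200 nt. The divisions were also chosen after the values were seen, so differences between stretches were not tested. Of the 35 strong peaks, 18 lay in the first stretch, 1 in the middle and 16 in the last.

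The strongest Fgf12 peak lay at chr16:28715475-28715525 (p of 4.81e-64), 37.7 kb into the gene, rank 1231 of the cortex list. The 2nd lay at chr16:28159076-28159126 (p of 5.92e-60), 1.32 kb from the gene end, and the 3rd at chr16:28560490-28560540 (p of 6.14e-55), 193 kb in. The last 5 kb held 6 Fgf12 peaks, 4 of them strong. In this gene 14 peaks also lay in Gm46548, a noncoding gene that RefSeq places on the same strand, and their RNA cannot be told apart from that of Fgf12.

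Fgf13, an X-linked member that also binds microtubules, had fewer peaks for its length than the other long members. Its span, chrX:59062139-59585572 on the minus strand, is 523 kb long and held 27. The first peak came 20.3 kb from the start, just past the 2nd RefSeq start site at 18.2 kb. Before that site lay 0 peaks, with an interval of 0 to 2.02 per 10 kb. This interval covers the density of 0.516 of the whole gene. The first and second of 10 equal parts held 8 and 6 peaks, the eighth and ninth 0, and the last 5. A stretch of 114 kb, from 360 to 474 kb, had no peak. No Fgf13 peak had a neighbour within 200 nt. The strongest lay at chrX:59062996-59063047 (p of 2.96e-41), 0.883 kb from the gene end, and the other 2 strong ones, with p of 2.33e-16 and 4.09e-16, lay 20.3 and 47.8 kb from the start.

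Fgf11, the shortest of the family with a span of 6.88 kb at chr11:69796068-69802944 on the minus strand, had its only peak at chr11:69796367-69796418. Its p of 0.00280 ranked 38392 in the list. The peak lay 325 nt from the gene end.

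Ank2 showed a pattern opposite to that of Fgf14, with peaks accumulating towards the 3′ end. Its span is chr3:126921607-127500347 on the minus strand, 579 kb. Of 10 equal parts, the first to the third held 5, 4 and 10 peaks, and the ninth and last 31 and 35. The 5′-proximal 50% of the span held 35.4% of its 192 peaks (29.0 to 42.4), rank 646 of 768, and the interval does not overlap that of Fgf14. RefSeq start sites divide Ank2 at 91.3, 502 and 557 kb. Density was 0.767 per 10 kb (0.308 to 1.58) before the 2nd start, with 7 peaks. It was 3.39 (2.85 to 3.997), 5.63 (3.83 to 7.99) and 6.89 (3.85 to 11.4) in the next 3 stretches, whose neighbouring intervals overlap.

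The strongest Ank2 peak, at chr3:126921790-126921840, had a p of 9.41e-314, rank 72 of the cortex list, and lay 208 nt from the gene end. It was the only cortex peak in the last 5 kb of Ank2. The next peaks by p lay inside the gene, at chr3:126948174-126948225 (p of 3.02e-46), 26.6 kb from the end, and at chr3:127223340-127223391 (p of 8.19e-41), 302 kb from it. The densest 10 kb, with 14 peaks, began 275 kb from the start.

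Ank3 had peaks along the gene, with a dip past its middle, and its lowest p values at the 3′ end. Its span is chr10:69533486-70027436 on the plus strand, 494 kb, the only member on that strand. The 5′-proximal 50% held 53.1% of its 96 peaks (43.2 to 62.8), close to the median gene. Of 10 equal parts, the first to the fifth held 8, 12, 11, 12 and 8 peaks, the sixth to the eighth 2, 6 and 7, and the ninth and last 13 and 17. The 3 strongest peaks were the only 3 in the last 5 kb. They lay at chr10:70024280-70024331 (p listed as 0), chr10:70026977-70027028 (p of 4.93e-56) and chr10:70025848-70025898 (p of 4.60e-43), which is 3.13, 0.434 and 1.56 kb from the end. The 4th, at chr10:69900229-69900280 (p of 1.97e-32), lay 127 kb from it. No start window of Ank3 was in the RefSeq table used, so its span was not divided.

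**Figure D4:**
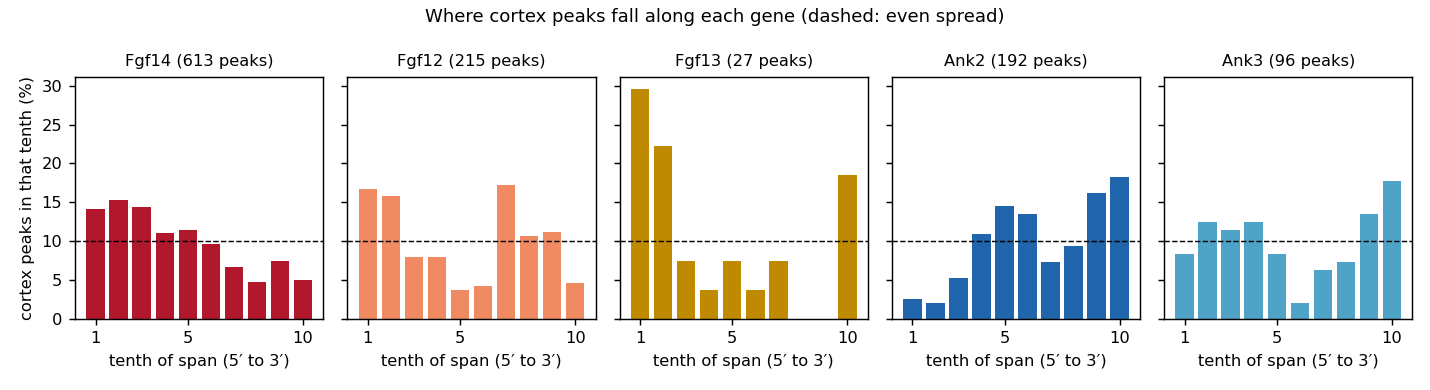
Percent of each gene's cortex peaks (vertical) in each of 10 equal parts of its span (horizontal, 5′ to 3′), with the number of peaks above each panel and a dashed line at the even share of 10%. Fgf14 falls from 14.2% to 5.06%, Ank2 climbs from 2.60% to 18.2%, and Fgf12 dips to 3.72% in the fifth part.

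Across the 6 genes, a small share of cortex peaks lay near the gene end. In the genes other than Fgf14 that share was higher among strong peaks. Within 5 kb of the end were 25 of 1144 peaks, 2.19% (Wilson 95% interval 1.48 to 3.21), against 3.66% of the peaks of coding genes of at least 400 kb and 19.9% of those of all coding genes. The window is a small part of a span of at least 400 kb and can cover a short gene whole. These shares therefore do not show whether peaks are sparser or denser at gene ends per length. The 5 kb share was 1.37% for peaks that touched no other gene span and 3.28% for peaks with p under 0.01. Of strong peaks 6.70% (3.88 to 11.4) lay there, and of the other 965 peaks 1.35% (0.789 to 2.29). In Fgf14, which holds 115 of the 179 strong peaks, these shares were 2.61% (0.891 to 7.39) and 1.61% (0.816 to 3.14), with overlapping intervals. Without Fgf14 they were 9 of 64 strong peaks, 14.1% (7.58 to 24.6), and 5 of 467 others, 1.07% (0.458 to 2.48). These 9 include the Ank3 peak with a p listed as 0, a value on which the genes were selected. The limit for strong peaks was chosen after the values were seen, and strong peaks of other long genes were not placed here. Whether strong peaks lie more often near gene ends was therefore not tested. The strongest peak lay within 5 kb of the end in Fgf13, Ank2 and Ank3, and far inside the gene in Fgf14 and Fgf12. Fgf11 is left out of this comparison, because it has 1 peak and the window covers most of its span of 6.88 kb. RefSeq exons were not used here, so whether a peak lies in an exon, an intron or an untranslated region was not determined.

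In N2A cells Ank2 alone of the 6 genes had peaks, 5 in number. An N2A peak was found in 14.4% of all coding genes and in 17.9% of those of at least 400 kb, so 1 of 5 long members is near the background of long genes. The 6 genes together held 1.17% of the cortex list and 0.0682% of the N2A list. Fgf14, with 613 peaks in cortex, Fgf12, Fgf13, Fgf11 and Ank3 had 0. The N2A list has fewer peaks in all and its depth is unknown, so these zeros do not show that the RNAs are unbound in N2A cells.

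The strongest N2A peak of Ank2 lay at chr3:126922460-126922510 (p of 8.93e-10, rank 1025 of 7335), 0.878 kb from the gene end and 620 nt from the strongest cortex peak, which it did not overlap. The next, at chr3:126948175-126948225 (p of 0.00374), overlapped the 2nd strongest Ank2 peak of cortex by 50 nt. The N2A peaks at chr3:126948647-126948697 (p of 0.0277) and chr3:127221708-127221759 (p of 0.0381) overlapped cortex peaks by 42 and 7 nt. The remaining one, at chr3:127401702-127401753 (p of 0.0220), lay 9936 nt from the nearest cortex peak, in the spans of the noncoding genes Gm52631 and Gm46824. Thus 3 of the 5 overlapped a cortex peak.

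Most genes that work with the members at the axon initial segment had cortex peaks, each with fewer than Fgf14, Fgf12, Ank2 or Ank3. The gene groups given here were written with earlier results of these data known. Over all coding genes, 40.8% had a cortex peak and 14.4% an N2A peak, and the groups were not matched to them for length. Of sodium channels and their beta subunits, the partners of the intracellular factors, 9 of 10 had cortex peaks and 0 of 10 N2A peaks, with a median of 6.5 cortex peaks. Scn8a, the main channel of mature axon initial segments, had 45, Scn2a 40, Scn1a 36, Scn3a 10 and Scn9a 7. Per 10 kb these were 2.56, 2.73, 2.12, 0.905 and 0.452 cortex peaks, all below Fgf14. Proteins of the initial segment and node had cortex peaks in 17 of 18 genes and N2A peaks in 4, with a median of 15. The adhesion molecule Cntn1 had 72, the potassium channel Kcnq3 59, the adhesion molecule Nrcam 50, the spectrin Sptbn1 46 and the Rac activator Tiam1 22. Trim46, which bundles microtubules at the initial segment, was the gene with 0, also named after its value was seen. N2A peaks lay in Sptbn1 (5), the microtubule end-binding gene Mapre1 (3), the scaffold Dlg4 (2) and the microtubule minus-end gene Camsap2 (2).

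Among other ankyrin, spectrin and adducin genes 9 of 11 had cortex peaks and 2 N2A peaks, with a median of 11 cortex peaks. Ank1, the ankyrin of red blood cells, had 6 cortex peaks in 176 kb, 0.342 per 10 kb, against 3.32 in Ank2 and 1.94 in Ank3. After Sptbn1 the highest counts were in Add3 and Sptan1 with 19 each, Sptbn4 with 15 and Add1 with 13, which also had 1 N2A peak. Secreted fibroblast growth factors, relatives of the intracellular ones that act through receptors outside the cell, had cortex peaks in 4 of 18 genes, namely Fgf9 (8), Fgf1 (3), Fgf10 (2) and Fgf5 (1). Their receptors and co-receptors had them in 4 of 7, namely Fgfr1 (7), Fgfr2 (6), Fgfr3 (1) and Kl (1). Neither group had an N2A peak. The shares over all coding genes, 40.8% in cortex and 14.4% in N2A, are the background for these counts, without matching for length. The secreted factor with most peaks, Fgf9, spans 42.2 kb, and its density of 1.90 per 10 kb is near that of Ank3, so counts alone do not compare genes of such unequal length.

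The genes most like each member were sought among coding genes with at least 20 cortex peaks and a count within 1.5 times the member's. The measure was the sum of absolute differences in the share of peaks over 10 equal parts of the span, where 0 means identical profiles. For Fgf14 these were the protocadherin Pcdh9 (0.173, 644 peaks) and the potassium channel partner Kcnip4 (0.225, 809 peaks), out of 12 candidates. For Fgf12 they were the active zone gene Rims1 (0.309, 169 peaks) and the adhesion receptor Adgrl3 (0.469, 178 peaks), out of 36. Fgf13 was nearest to the nuclear receptor coactivator Ncoa2 (0.234, 31 peaks) and Lhfpl3 (0.245, 23 peaks), out of 662. Ank2 was nearest to the phosphodiesterase Pde4d (0.366, 158 peaks) and Stxbp5l (0.408, 149 peaks), out of 46, and Ank3 to Rere (0.303, 86 peaks) and Strbp (0.318, 106 peaks), out of 138. These likenesses rest on 1 list and describe positions only.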

How the data were processed

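Elavl HITS-CLIP peaks of mouse cortex (3 samples, 1 shared list) and N2A cells (1 sample, 1 list) were analysed as deposited. Per the labels, crosslinked RNA was partly digested, ligated to linkers and amplified by PCR. The submitters' processing notes name Novoalign and the build hg19, while chromosome names in the lists are those of mouse and positions were read as GRCm38. No label or header states the peak caller, its filters or how samples were merged. The only deposited value is a p-value per peak from the authors' peak calling, below 0.1 throughout (highest 0.0999), whose adjustment is not stated. It was used only within a list.

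Spans came from RefSeq GRCm38.p6 with 21896 coding genes. Every coding gene was counted by the members' rule, and a gene end is that of the span on the strand of its peaks. Start sites came from RefSeq windows of 250 bases before to 50 after each start. Members and gene groups were chosen with earlier results of these data known. Named are all members, the peak of lowest p in each, the 2 most like genes of each member with at least 20 cortex peaks, and up to 5 genes per group by peak count plus those with N2A peaks where at most 5. Python 3.11.15, pandas 2.3.3 and scipy 1.17.1 were used, and peak assignment was tested on simulated data. Further peaks, the limit of 1e-10, the class of at least 400 kb, divisions at start sites and the motif search were chosen after the values were seen. Some genes of the groups are not reported by name here. No samples were compared by a test. Alternatives varied the p limit, overlap, strand, other genes touched, merging, end window and neighbour distance.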

Additional observations from a re-analysis of the deposited data

How the results depend on the processing

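With p under 0.01 the 6 genes held 670 cortex peaks and 2 N2A peaks, 3.28% of the cortex peaks lay within 5 kb of the gene end and 13.9% had a neighbour within 200 nt, against 1144, 5, 2.19% and 24.0% with all peaks. Density then fell by more than 1.5 times in 5 of 6 members, all but Fgf11. Peaks that touched no other gene span gave 1.37% within 5 kb of the end, and the lost ones include the 10 Fgf14 peaks in the span of Itgbl1. A window of 2 kb gave 1.22%. A distance of 100 nt gave 7.95% of peaks with a neighbour, and 1000 nt gave 73.8%. The other 42 of 55 values stayed within 1.5 times for counts and densities or within the Wilson interval for shares. Requiring the whole peak inside the span, taking both strands or merging overlapping peaks changed none of the members' counts. Protein identity among the intracellular factors was planned and not run, since no protein sequences were used here. Because the lists hold p and no read counts, depth and the weakest detectable site are unknown, and the numbers of peaks in the lists cannot be set against each other as levels of binding.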
